A study of Mus musculus with 10 samples.

Results

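The connecting cilium genes Cep290, Rpgrip1, Nphp4, Lca5, Spata7, Tulp1, Kif3a, Ift88 and Cc2d2a were followed across every consensus CUT&Tag peak that carried their symbol. These 9 genes, of 25400 gene symbols in the peak table, held 54 of its 108253 peaks. The genes were picked by name for their place in the cilium, with no threshold on a measured value, and 12 of the 54 peaks were promoter peaks while 42 lay elsewhere. Whole retinas from wild-type C57BL/6J mice at postnatal day 28 were kept as explants for 48 h in 5 mM or 25 mM glucose. CUT&Tag, which uses an antibody-tethered transposase to cut DNA beside a chosen chromatin mark, was then run on 500000 cells per assay for H3K18La or H3K27Ac. The study asked whether glucose supply changes lactylation of a lysine on histone H3 (H3K18La), and acetylation of another lysine on the same histone (H3K27Ac) was measured beside it. There were 3 H3K18La libraries and 2 H3K27Ac libraries at each glucose level. No label says whether the libraries of a group came from separate animals or explants. The study's methods do speak of biological replicates where they describe the consensus peaks. The p-values therefore measure the spread between these libraries, which may be technical. For H3K27Ac that spread was the one shared by peaks of like level, and a peak's own libraries carried no weight in it. The explants held all retinal cell types, and fewer cells of a type cannot be told apart from less mark per cell.

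The connecting cilium is the transition zone of the photoreceptor, the narrow bridge through which every protein of the light-sensing outer segment must pass. Its gate is built from the proteins of CEP290, NPHP4, CC2D2A, RPGRIP1 and SPATA7, while IFT88 and the kinesin subunit KIF3A move cargo along the axoneme, lebercilin (LCA5) links to that transport and TULP1 helps rhodopsin reach the outer segment. Mutations of several of these genes cause Leber congenital amaurosis, retinitis pigmentosa or syndromes in which retinal degeneration accompanies kidney or brain disease. Acetylation and lactylation of histone H3 are both found at active promoters and enhancers.

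Stretches of the peaks that the results turn on are printed here from the GRCm38.p6 genome, plus strand, 5′ to 3′. Capitals mark a match on either strand to TAATCC, the core bound by the photoreceptor factor CRX, to GTTGCC, a half-site of the ciliogenic RFX factors, or to GGGCGG, the GC box of SP and KLF factors. Stretches were chosen outside annotated exons. The Cep290 and Rpgrip1 stretches lie in their promoter peaks, and that of Spata7 ends at the base before the annotated start of the gene. Nphp4 is shown by the intronic peak with an RFX half-site on each strand, and Tulp1 by its upstream peaks with the highest mean H3K18La, each with a CRX core. The Lca5 intron 1 stretch comes from that gene's strongest peak, and the Lca5 intron 3 stretch, which holds no match, from the peak with the largest H3K18La rise.
Rpgrip1 promoter peak, chr14:52111052-52111177: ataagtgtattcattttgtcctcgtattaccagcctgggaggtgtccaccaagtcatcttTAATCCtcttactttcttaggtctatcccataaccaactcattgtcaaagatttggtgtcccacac
Spata7 promoter peak, chr12:98628037-98628156: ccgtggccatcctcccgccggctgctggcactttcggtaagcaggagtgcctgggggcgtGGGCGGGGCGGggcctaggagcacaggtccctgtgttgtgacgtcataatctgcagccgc
Cep290 promoter peak, chr10:100487753-100487868: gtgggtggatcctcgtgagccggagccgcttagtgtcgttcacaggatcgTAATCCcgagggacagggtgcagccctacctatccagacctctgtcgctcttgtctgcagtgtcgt
Nphp4 intron 1, chr4:152483812-152484053: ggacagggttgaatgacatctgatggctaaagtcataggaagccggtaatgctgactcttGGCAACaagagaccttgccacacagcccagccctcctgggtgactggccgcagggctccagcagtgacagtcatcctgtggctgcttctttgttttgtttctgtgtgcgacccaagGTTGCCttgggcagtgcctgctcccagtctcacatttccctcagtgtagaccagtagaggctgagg
Lca5 intron 1, chr9:83428181-83428306: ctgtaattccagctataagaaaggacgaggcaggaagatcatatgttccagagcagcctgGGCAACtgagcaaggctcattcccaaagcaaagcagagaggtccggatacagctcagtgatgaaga
Lca5 intron 3, chr9:83420071-83420270: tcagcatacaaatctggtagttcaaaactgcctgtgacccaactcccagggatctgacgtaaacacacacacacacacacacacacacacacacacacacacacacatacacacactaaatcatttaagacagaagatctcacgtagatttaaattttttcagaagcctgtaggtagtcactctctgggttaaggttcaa
Tulp1 nearer upstream peak, chr17:28371934-28372059: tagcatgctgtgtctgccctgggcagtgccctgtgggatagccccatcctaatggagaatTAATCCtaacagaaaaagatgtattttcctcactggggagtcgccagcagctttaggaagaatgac
Tulp1 farther upstream peak, chr17:28380350-28380475: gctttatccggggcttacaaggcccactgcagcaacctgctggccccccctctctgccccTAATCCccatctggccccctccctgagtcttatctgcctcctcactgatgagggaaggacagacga

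The values are RPKM, read counts scaled to peak length and to library size, as the authors deposited them. The RPKM values were whole multiples of a unit read in every library, which gave denominators of 1358008 to 7424470 reads. The share of those reads inside consensus peaks was 11.8% to 12% for H3K18La at 5 mM and 31.2% to 35.0% at 25 mM. For H3K27Ac it was 21.1% and 31.5% at 5 mM and 56.5% and 69.5% at 25 mM, so signal in peaks was higher at 25 mM over the whole table. Changes were tested with limma on log2(RPKM + 0.5) over every peak with a mean of at least 1 RPKM. The median change of all tested peaks was 1.10 for H3K18La and 0.84 for H3K27Ac on the log2 scale, and each change below can be read against that shift. Rod marker genes moved with glucose too, with a summed level of 7.88 to 10.7 RPKM at 5 mM and 38.6 to 78.3 RPKM at 25 mM in H3K18La. Their H3K27Ac sum was 35.1 to 58.9 RPKM at 5 mM and 162 to 259 RPKM at 25 mM, and 6 of 6 rod markers were called higher in both marks. Markers of other cells were called higher as well, in H3K18La 3 of 5 tested for cones, 2 of 4 for Muller glia, 2 of 2 for bipolar, 1 of 1 for amacrine, 1 of 2 for ganglion cells and 1 of 2 for microglia. In H3K27Ac these numbers were 4 of 4, 2 of 4, 5 of 5, 1 of 1, 0 of 1 and 1 of 2. Over all genes tested, 57.0% were called higher in H3K18La and 62.2% in H3K27Ac. Several of the marker counts lie near or below those shares. Of 4 pigment epithelium markers, 2 could be tested, 0 were called in either mark, and Rpe65 was listed at 0 in all 10 libraries. The part of the library-wide shift and of cell make-up in the results was not tested.

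H3K18La was higher at 25 mM glucose at most promoters of the set. Of the 12 promoter peaks 10 had enough signal to be tested, and 9 of them were called higher (adjusted p under 0.05, Benjamini-Hochberg over all tested peaks), where the background over all promoter peaks was 33.3%. For H3K27Ac all 12 were tested and 11 were called higher, against a background of 57.0%. None of those tested was called lower in either mark. Calls went with level, and most promoter peaks of the set lay above a mean of 2 RPKM in H3K18La and all did in H3K27Ac. At that minimum, 3576 of 5353 promoter peaks of the series were called higher in H3K18La and 9066 of 12614 in H3K27Ac. The promoter peaks are not separate genes, since Tulp1, Lca5 and Rpgrip1 each had a pair. In the set as a whole, 43 of the 54 peaks passed the level filter for H3K18La and 25 were called higher, where 37.3% of all tested peaks were. For H3K27Ac 51 passed and 24 were called higher, against 33.9% of all tested peaks. A peak can pass the filter through its 25 mM libraries alone, so the peaks that passed do not stand for all 54. Over all 54 peaks, whatever their level, the 25 mM mean was the higher in 50 for H3K18La and in 51 for H3K27Ac, beside 80.8% and 77.4% of all 108253 peaks.

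The calls depended on how the libraries were scaled. With each library scaled to its own reads in peaks, 0 of the 54 peaks were called in either mark, as were 0 peaks of the whole series. The change was then positive in 31 of 43 tested peaks for H3K18La and 26 of 51 for H3K27Ac, with member medians of 0.40 and 0.02 on the log2 scale in place of 1.45 and 1.16. Over all tested peaks 51.9% and 35.4% were positive, with medians of 0.03 and -0.22. With each centred on its median peak 1 of 43 was called in H3K18La, beside 1.59% of all tested peaks, and 3 of 51 in H3K27Ac, beside 1.58%. For H3K27Ac, leaving out a library leaves 1 at that glucose level, which is then assumed to vary like the 2 of the other level, so a call lost there does not show a weaker effect. With 25 mM replicate 1 or replicate 2 left out, 0 of the member peaks were called, beside 0.0142% and 1.38% of all tested peaks, while the median member change was 1.13 and 1.20. Without 5 mM replicate 2 the number was 37, beside 53.0%. Every 25 mM library lay above every 5 mM library in 28 of the 43 tested peaks for H3K18La, beside 53.4% of all tested peaks, and in 44 of the 51 for H3K27Ac, beside 69.3%.

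**Figure D1:**
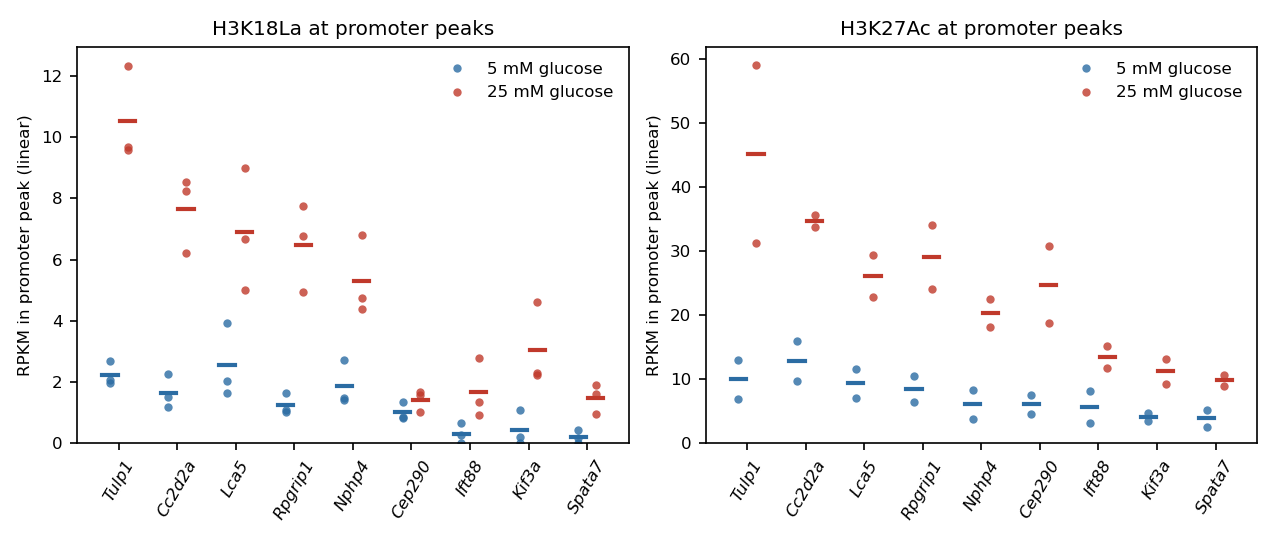
RPKM (linear axis) of each library in the promoter peak with the highest mean level of each of the 9 genes, with H3K18La on the left and H3K27Ac on the right. Points are libraries, 3 per glucose level for H3K18La and 2 for H3K27Ac, and bars are means. The glucose levels did not overlap at any of these peaks except Cep290 in H3K18La. Every 25 mM library lay above every 5 mM library in 53.4% of all tested H3K18La peaks and 69.3% of all tested H3K27Ac peaks. The H3K18La points of Spata7 and Ift88 rest on 2 reads each at 5 mM and were below the level filter.

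At the gate of the cilium, Rpgrip1 encodes the protein that anchors RPGR to the connecting cilium. Its promoter peak at chr14:52110425-52111854 had 1.66, 1.08 and 1.03 RPKM of H3K18La at 5 mM and 6.76, 7.74 and 4.95 RPKM at 25 mM. Its H3K27Ac was 6.47 and 10.6 RPKM at 5 mM and 34.0 and 24.1 RPKM at 25 mM. The levels were apart in both marks, with a log2 change of 1.99 (SE 0.36, adjusted p = 0.00197) for H3K18La and 1.73 (SE 0.51, adjusted p = 0.00716) for H3K27Ac. The other Rpgrip1 peak, at chr14:52118657-52119640, covers the start of a transcript that retains an intron. It was called for H3K18La, with a log2 change of 1.88 (SE 0.54, adjusted p = 0.0191), and missed the threshold for H3K27Ac at 1.06 (SE 0.52, adjusted p = 0.0916), although both 25 mM libraries were above both 5 mM libraries. The H3K18La call at this internal start was lost without 25 mM replicate 1 (adjusted p = 0.0710) or replicate 2 (adjusted p = 0.0636). In the H3K18La change, the main promoter peak stood 0.89 log2 units above the median of all tested peaks.

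Cc2d2a, whose protein belongs to the tectonic complex of the transition zone, gave a like picture. In the promoter peak at chr5:43661542-43663013, H3K18La was 2.25, 1.18 and 1.50 RPKM at 5 mM and 6.22, 8.52 and 8.25 RPKM at 25 mM. The H3K27Ac values were 9.74 and 16.0 RPKM at 5 mM and 35.7 and 33.9 RPKM at 25 mM. No value at 5 mM reached a 25 mM value in either mark. The log2 change was 1.95 (SE 0.34, adjusted p = 0.00175) in H3K18La and 1.44 (SE 0.53, adjusted p = 0.0261) in H3K27Ac. A neighbouring peak at chr5:43665107-43666204, annotated to the 5′ UTR, rose by 2.25 (adjusted p = 0.00125) and 1.49 (adjusted p = 0.0217). The intronic peak near the far end of the gene changed by 0.91 (SE 0.52, adjusted p = 0.176) and 0.89 (SE 0.48, adjusted p = 0.128), which did not pass, and the peak upstream was below the level filter in both marks.

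Cep290, which encodes the gatekeeper of the transition zone, had the smallest H3K18La change among the tested promoter peaks of the set. The peak at chr10:100486533-100488160 had 0.874, 0.830 and 1.36 RPKM of H3K18La at 5 mM and 1.56, 1.66 and 1.04 RPKM at 25 mM. The glucose levels overlapped, and the log2 change was 0.34 (SE 0.47, 95% interval -0.70 to 1.38, adjusted p = 0.578). It was below the median of all peaks, 1.10, which the interval includes. The change rested on 13 reads against 21, a depth-scaled ratio of 1.55 with an exact 95% counting interval of 0.74 to 3.38. It turned negative when libraries were centred on their median peak, scaled to reads in peaks or centred on their weakest peaks. In the same peak H3K27Ac was 4.55 and 7.62 RPKM at 5 mM and 30.8 and 18.8 RPKM at 25 mM, a log2 change of 1.94 (SE 0.50, adjusted p = 0.00236). This peak holds the start of Cep290 and, on the other strand, the start of Tmtc3, so its signal cannot be assigned to either gene. The H3K18La change minus the H3K27Ac change was -1.60 (95% interval -2.85 to -0.36, unadjusted p = 0.0150), with an adjusted p of 0.903 in the limma fit over all 72467 peaks tested for a difference between marks. Cep290 had a pair of peaks inside the gene. The peak over exon 13 of 53, at chr10:100500819-100502860, had 0.697, 1.13 and 1.80 RPKM of H3K18La at 5 mM and 5.48, 5.30 and 4.46 RPKM at 25 mM. It rose by 1.75 (SE 0.38, adjusted p = 0.00533) in H3K18La and by 1.42 (SE 0.49, adjusted p = 0.0197) in H3K27Ac. The peak in intron 24, the strongest of Cep290 outside the promoter, changed by 0.63 (SE 0.53, adjusted p = 0.348) and 0.34 (SE 0.53, adjusted p = 0.620), with libraries of the glucose levels overlapping in both marks.

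Nphp4, whose protein is part of the transition zone, had the most peaks of the set, 17. Its promoter peak by annotation, at chr4:152487352-152488919, covers the start of an internal processed transcript. There H3K18La was 2.72, 1.48 and 1.41 RPKM at 5 mM and 6.81, 4.39 and 4.73 RPKM at 25 mM, a log2 change of 1.31 (SE 0.37, adjusted p = 0.0175). That call was lost without 25 mM replicate 1 (adjusted p = 0.0634) or 5 mM replicate 2 (adjusted p = 0.0541). H3K27Ac in it was 3.83 and 8.32 RPKM at 5 mM and 22.5 and 18.1 RPKM at 25 mM, a log2 change of 1.74 (SE 0.49, adjusted p = 0.00519). The annotated 5′ start of the full-length gene, at position 152476706, lies instead in a peak that carries the symbol Kcnab2, a potassium channel subunit gene that starts there on the opposite strand. That peak, chr4:152476503-152478862, rose by 1.85 (SE 0.44, adjusted p = 0.00777) in H3K18La and by 2.04 (SE 0.49, adjusted p = 0.00127) in H3K27Ac, and is not among the 54. A search by symbol alone therefore leaves out the start of Nphp4.

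Of the 17 Nphp4 peaks, 10 were tested for H3K18La and 2 called, beside 37.3% of all tested peaks, and 15 were tested for H3K27Ac and 2 called, beside 33.9%. Every 25 mM library nonetheless lay above every 5 mM library in 10 of those 15 for H3K27Ac and in 4 of the 10 for H3K18La, and every one lay below in 1 and 0, where 69.3% and 53.4% of all tested peaks had the 25 mM libraries above. The called peaks were the promoter peak in both marks, a downstream peak at chr4:152569146-152570029 in H3K18La and the intron 1 peak with the RFX half-sites in H3K27Ac. The downstream peak had 0.536, 0.873 and 0 RPKM of H3K18La at 5 mM and 2.88, 2.78 and 1.91 RPKM at 25 mM, a log2 change of 1.74 (SE 0.54, adjusted p = 0.0271). Its H3K27Ac, at 1.57 and 0.911 RPKM against 0.944 and 1.52 RPKM, overlapped between glucose levels (SE of the log2 change 0.52). The H3K18La call there was lost without any of the 25 mM libraries (adjusted p = 0.0618 to 0.119). The intron 1 peak at chr4:152483361-152484112 had 4.31 and 4.28 RPKM of H3K27Ac at 5 mM and 11.6 and 11.5 RPKM at 25 mM, a log2 change of 1.33 (SE 0.47, adjusted p = 0.0211). In H3K18La the intron 1 peak just missed the threshold at 1.84 (SE 0.69, adjusted p = 0.0539). The strongest peak outside the promoter, in intron 2, changed by 0.98 (SE 0.77, adjusted p = 0.322) and 0.26 (SE 0.48, adjusted p = 0.677).

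Spata7, whose protein holds the photoreceptor-specific part of the connecting cilium together, had little H3K18La at either glucose level. Its promoter peak at chr12:98627930-98629005 had 0.441, 0.179 and 0 RPKM at 5 mM and 1.89, 1.60 and 0.940 RPKM at 25 mM. These values came from 2 reads over the 5 mM libraries and 14 over the 25 mM libraries, a depth-scaled ratio of 6.73 with an exact 95% interval of 1.55 to 61.0 that covers counting error only. The peak was below the level filter, so it had no test in H3K18La. Its H3K27Ac was 2.58 and 5.24 RPKM at 5 mM and 10.7 and 8.89 RPKM at 25 mM, a log2 change of 1.29 (SE 0.46, adjusted p = 0.0225). Of the other 3 Spata7 peaks, the one in intron 10 was called in H3K27Ac, with 1.40 and 3.50 RPKM at 5 mM and 6.05 and 6.68 RPKM at 25 mM (log2 change 1.31, adjusted p = 0.0136). Its H3K18La change was 0.89 (SE 0.65, adjusted p = 0.288).

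Transport along the axoneme was represented by Kif3a and Ift88, which every ciliated cell uses. The only peak of Kif3a, a motor subunit of kinesin-2, lies at chr11:53566823-53567703 and also covers the start of the antisense transcript A430108G06Rik. Its H3K18La was 1.08, 0.219 and 0 RPKM at 5 mM and 4.62, 2.23 and 2.30 RPKM at 25 mM, a log2 change of 2.04 (SE 0.57, adjusted p = 0.0171) on 3 reads against 22. The size of this change depended on the pseudocount, at 3.15 with 0.1 and 1.52 with 1. The depth-scaled ratio was 7.05, with an exact 95% counting interval of 2.12 to 36.8, and the call was lost without 25 mM replicate 1 (adjusted p = 0.110). H3K27Ac rose from 4.72 and 3.47 RPKM to 13.1 and 9.33 RPKM (log2 change 1.34, SE 0.47, adjusted p = 0.0193). Ift88, a core subunit of the IFT-B train, had a promoter peak at chr14:57423651-57424380 with 0.649, 0.264 and 0 RPKM of H3K18La at 5 mM and 2.79, 1.35 and 0.924 RPKM at 25 mM. That was 2 reads against 10, a ratio of 4.81 with a counting interval of 1.02 to 45.1, and too little for the test. In H3K27Ac the Ift88 promoter had 3.17 and 8.16 RPKM at 5 mM and 15.2 and 11.8 RPKM at 25 mM, and rose by 1.30 (SE 0.48, adjusted p = 0.0264). The other Ift88 peak, over an exon of its antisense transcript, changed by 0.16 (SE 0.49, adjusted p = 0.804) in H3K18La and 0.86 (SE 0.44, adjusted p = 0.105) in H3K27Ac.

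**Figure D2:**
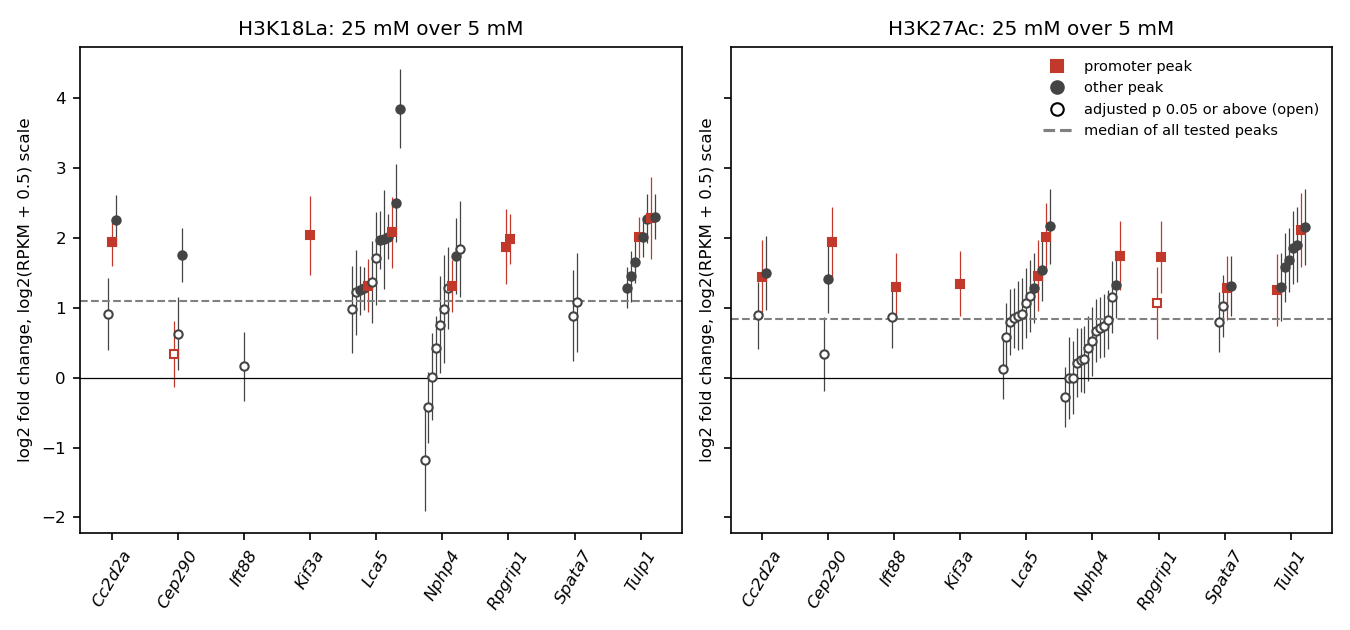
Log2 change from 5 mM to 25 mM glucose on the log2(RPKM + 0.5) scale for each tested peak of the 9 genes, 43 for H3K18La and 51 for H3K27Ac. Squares are promoter peaks, circles are other peaks, filled symbols have an adjusted p under 0.05, error bars are SE, and the dashed line is the median of all tested peaks (1.10 and 0.84). Every Tulp1 peak is filled in both panels, and the Cep290 promoter, whose small H3K18La rise turned negative under 3 other scalings, is open in H3K18La and filled in H3K27Ac.

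Tulp1 and Lca5, the members with the highest H3K18La at 5 mM and 25 mM, held 21 of the 43 peaks tested in H3K18La and 17 of its 25 calls, and 21 of the 51 tested in H3K27Ac and 13 of its 24 calls. Calls went with level in the whole series, with 68.6% of peaks called in H3K18La at a minimum mean of 2 RPKM and 37.4% at the minimum of 1 RPKM. Tulp1 encodes a photoreceptor protein of the tubby family. In its promoter peak at chr17:28363902-28365675, H3K18La was 2.67, 1.96 and 2.08 RPKM at 5 mM and 12.3, 9.57 and 9.69 RPKM at 25 mM. H3K27Ac there was 6.91 and 13.1 RPKM at 5 mM and 59.1 and 31.3 RPKM at 25 mM. The 25 mM libraries were well above the 5 mM libraries, with a log2 change of 2.01 (SE 0.29, adjusted p = 0.000734) in H3K18La and 2.12 (SE 0.53, adjusted p = 0.00174) in H3K27Ac. The other promoter peak of Tulp1, at an internal start, rose by 2.29 (adjusted p = 0.0114) and 1.25 (adjusted p = 0.0459).

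The remaining 6 Tulp1 peaks formed a row upstream of the gene, in intergenic DNA, and every one of them was called higher in both marks, where 38.2% and 27.8% of all tested non-promoter peaks were. Their log2 changes ran from 1.29 to 2.31 in H3K18La and from 1.30 to 2.15 in H3K27Ac. The nearer peak printed above, at chr17:28371274-28372719, had 3.93, 2.27 and 3.06 RPKM of H3K18La at 5 mM and 27.8, 14.5 and 11.2 RPKM at 25 mM. Its H3K27Ac was 10.4 and 15.6 RPKM at 5 mM and 77.3 and 44.1 RPKM at 25 mM. This was the peak with the highest mean level of all 54, above 98.5% of non-promoter peaks of the series in H3K18La and above 99.8% in H3K27Ac, and it rose by 2.27 (SE 0.35, adjusted p = 0.000900) and 2.15 (SE 0.54, adjusted p = 0.00191). The farther peak, chr17:28379644-28381484, had 3.09, 2.83 and 2.80 RPKM of H3K18La at 5 mM and 27.4, 13.8 and 11.5 RPKM at 25 mM, a log2 change of 2.31 (SE 0.33, adjusted p = 0.000661). Its H3K27Ac, 8.42 and 16.1 RPKM against 63.3 and 32.0 RPKM, rose by 1.91 (SE 0.53, adjusted p = 0.00472). At both peaks 25 mM replicate 1 was the highest library in each mark. The peaks were given to Tulp1 because its start is the nearest, 6.77 to 26.4 kb from the peak centres, and no contact with the promoter was measured.

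Lca5 had 13 peaks along the gene and its downstream flank, all tested in both marks. In H3K18La 9 were called higher, where 37.3% of all tested peaks were, and in H3K27Ac 5 were, near the 33.9% of all tested peaks. The annotated 5′ start of this minus-strand gene lies in the promoter peak chr9:83440436-83441496, which had 0, 1.27 and 0.694 RPKM of H3K18La at 5 mM and 3.84, 3.48 and 4.13 RPKM at 25 mM. Its H3K27Ac was 3.05 and 7.74 RPKM at 5 mM and 23.6 and 19.3 RPKM at 25 mM. The levels were apart in both marks, and the log2 changes were 2.08 (SE 0.51, adjusted p = 0.00924) and 2.01 (SE 0.49, adjusted p = 0.00144). The stronger promoter peak, at chr9:83433847-83435713, covers an internal start. It had 2.03, 1.65 and 3.94 RPKM of H3K18La at 5 mM and 8.99, 5.01 and 6.68 RPKM at 25 mM (log2 change 1.32, SE 0.38, adjusted p = 0.0186), a call lost without 25 mM replicate 1 or 3 or 5 mM replicate 2 (adjusted p = 0.0513 to 0.0712). H3K27Ac there rose from 7.06 and 11.6 RPKM to 29.3 and 22.9 RPKM (log2 change 1.46, SE 0.51, adjusted p = 0.0204). Both promoter peaks overlap the antisense transcript Gm2087.

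Between these starts and the end of the gene, Lca5 had its strongest peak in intron 1, at chr9:83427708-83428691. It held 1.93, 2.94 and 3.74 RPKM of H3K18La at 5 mM and 17.6, 12 and 9.94 RPKM at 25 mM. H3K27Ac in it was 8.93 and 14.7 RPKM at 5 mM and 69.5 and 40.8 RPKM at 25 mM. The log2 rise was 2.02 (SE 0.32, adjusted p = 0.00112) in H3K18La and 2.17 (SE 0.54, adjusted p = 0.00166) in H3K27Ac. The difference between them was -0.15 (95% interval -1.30 to 1.01), an interval too wide to say that the marks rose alike.

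A short peak in intron 3, chr9:83420012-83420329, had few H3K18La reads at 5 mM. Its H3K18La was 1.49, 0 and 0 RPKM at 5 mM and 6.40, 14.7 and 13.8 RPKM at 25 mM, the largest rise of the set at 3.85 (SE 0.57, adjusted p = 0.000760). A single read was found over the 5 mM libraries and 36 over the 25 mM libraries, a depth-scaled ratio of 34.6 with an exact 95% counting interval of 5.83 to 1404.5. H3K27Ac, at 7.27 and 14.7 RPKM against 24.5 and 23.3 RPKM, changed by 1.17 (SE 0.51, adjusted p = 0.0626). The H3K18La change exceeded the H3K27Ac change by 2.69 (95% interval 0.96 to 4.41, unadjusted p = 0.00470), with an adjusted p of 0.903. As the printed sequence shows, the peak holds a run of 44 bases of alternating A and C, and 34.3% of the whole peak was soft-masked as repeat, where reads are harder to place. The part of the repeat in the rise was not tested. The neighbouring intron 3 peak, chr9:83421033-83421971, with 11.2% soft-masked, rose by 2.50 (SE 0.56, adjusted p = 0.00591) in H3K18La and 1.28 (SE 0.50, adjusted p = 0.0360) in H3K27Ac. Its H3K18La rise rested on 7 reads at 5 mM against 54 at 25 mM. The size of that rise moved with the pseudocount, at 3.44 with 0.1 and 2.04 with 1.

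**Figure D3:**
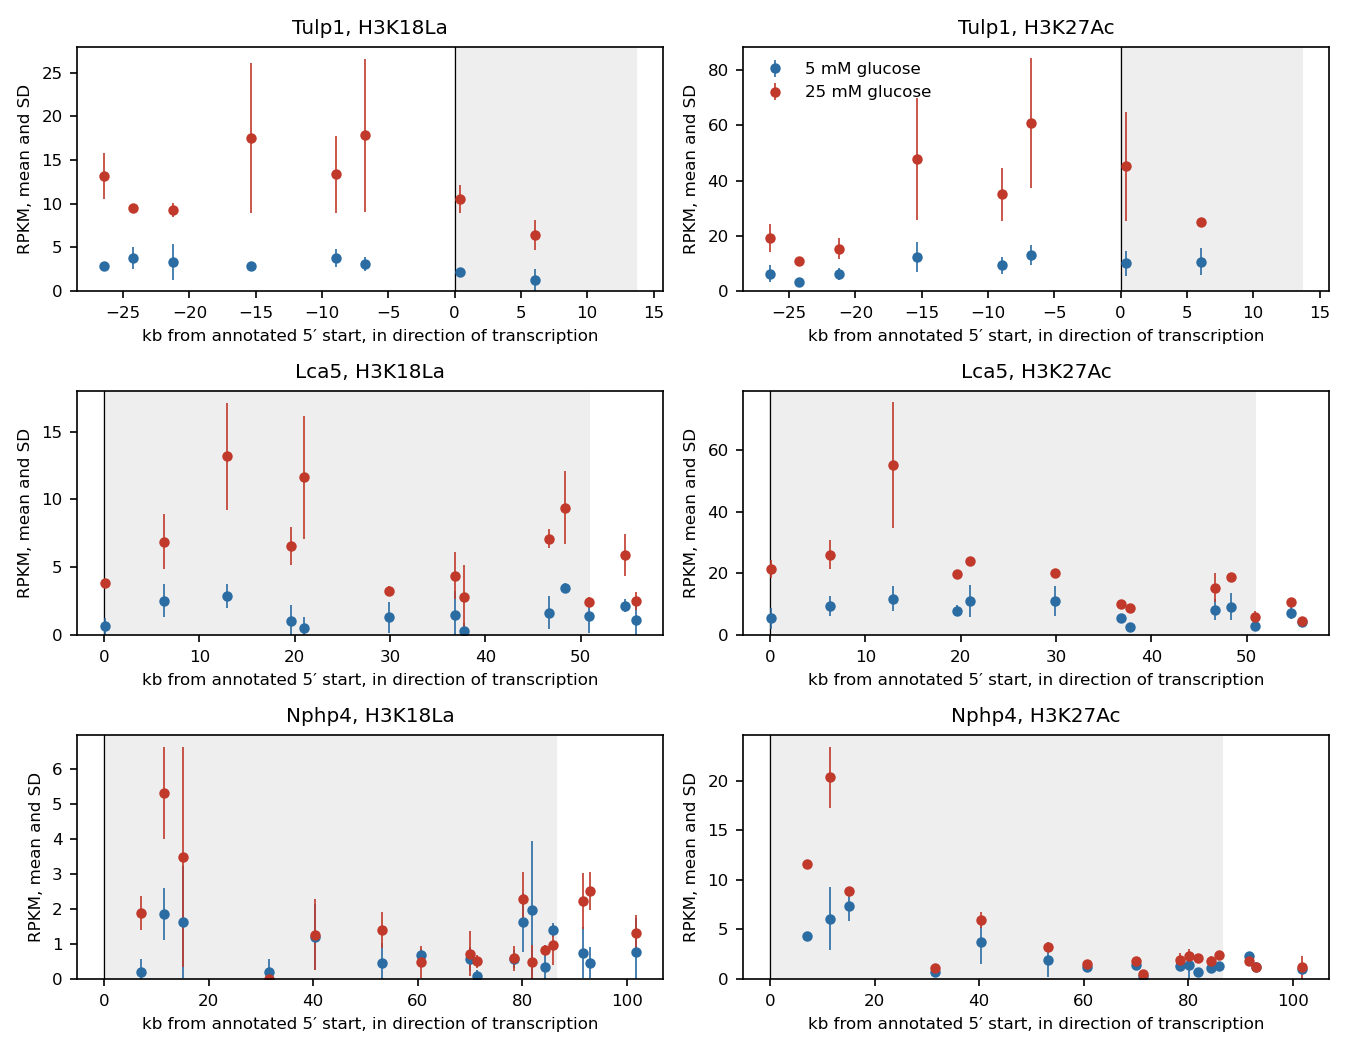
Mean RPKM with SD at each peak of Tulp1, Lca5 and Nphp4, placed by its distance in kb from the annotated 5′ start of the gene in the direction of transcription, at 5 mM (blue) and 25 mM (red) glucose. The shaded span is the gene body. The 6 upstream Tulp1 peaks and the Lca5 peaks near the start lie higher at 25 mM. Most Nphp4 peaks past the promoter lie at low RPKM at both glucose levels. The 25 mM H3K27Ac libraries were all above the 5 mM libraries in 10 of 15 tested Nphp4 peaks, near the 69.3% of all tested peaks.

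The marks were compared over the 43 peaks tested in both. Of these 19 were called in both marks, 6 in H3K18La alone, 3 in H3K27Ac alone and 15 in neither. Over all 57421 peaks tested in both marks the shares were 22.0%, 19.7%, 15.4% and 43.0%. A call in a single mark is not a difference between marks, and the test of that difference called 0 of 49 member peaks tested, as it called 0% of all peaks in the series, which does not show that the marks changed alike. At an unadjusted p under 0.05 there were 4 member peaks in the limma fit, where 5.04% of all peaks were, and 5 by voom on the recovered reads, where 7.49% were, and the 4 are given as values only. They were the Cep290 promoter, the Lca5 intron 3 peak and a pair of Nphp4 peaks. In the Nphp4 pair the difference was 1.74 (95% interval 0.09 to 3.39, unadjusted p = 0.0399) at the called downstream peak. It was -2.34 (95% interval -4.37 to -0.30, unadjusted p = 0.0273) at an intron 22 peak covered by 6 H3K18La reads at 5 mM and 2 at 25 mM. Few reads lay behind the H3K18La values. A promoter peak of the set had 0 to 18 reads in a 5 mM library, with a median of 3, and 2 to 69 reads in a 25 mM library, with a median of 12. For H3K27Ac the medians were 41.5 and 195.5 reads. Over the 54 peaks, 12 rested on 1 to 3 H3K18La reads in all at 5 mM, so at those peaks a difference could be seen only where the 25 mM signal was high. Of the 25 peaks called in H3K18La, 8 changed in fold by over 1.5 times with a pseudocount of 0.1 or 1, among them the Lca5 intron 3 peak (log2 changes of 5.45 and 3.14), the Lca5 5′ start (3.03 and 1.62), the internal Rpgrip1 start (2.75 and 1.47), the internal Tulp1 start (3.16 and 1.87) and the downstream Nphp4 peak (2.71 and 1.30). None of the H3K27Ac calls did.

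When the reads of all peaks of a gene were pooled, the members fell into an order of signal per kilobase. In H3K18La at 5 mM, Tulp1 was highest at 2.97 RPKM (SD 0.484, n = 3), followed by Lca5 at 1.81 RPKM (SD 0.282) and Cep290 at 1.36 RPKM (SD 0.571). Kif3a was lowest at 0.432 RPKM (SD 0.569). At 25 mM Tulp1 again stood first at 13.3 RPKM (SD 4.15), clear of Lca5 at 6.32 RPKM (SD 0.506), while the range of Cc2d2a, at 5.74 RPKM (SD 0.600), overlapped with those of Lca5 and of Rpgrip1 at 5.44 RPKM (SD 1.09). Spata7 at 1.40 RPKM (SD 0.180) and Ift88 at 1.36 RPKM (SD 0.451) were lowest, with ranges that overlapped each other and that of Nphp4 at 1.69 RPKM (SD 0.474). In H3K27Ac at 5 mM the first 5 genes, Cc2d2a, Rpgrip1, Tulp1, Cep290 and Lca5, lay between 7.49 and 9.82 RPKM with overlapping ranges. At 25 mM Tulp1 led at 38.0 RPKM (SD 14.3, n = 2), overlapping with Rpgrip1 at 27.3 RPKM (SD 4.38), and Nphp4 was last at 4.83 RPKM (SD 0.375).

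By gene, 8 of the 9 could be tested for H3K18La and 6 were called higher, beside 57.0% of all genes tested. Those were Tulp1 (log2 change 1.96, SE 0.22), Rpgrip1 (1.87, SE 0.19), Cc2d2a (1.81, SE 0.18), Lca5 (1.57, SE 0.15), Cep290 (1.20, SE 0.25) and Kif3a (2.04, SE 0.48), whose value moved with the pseudocount as at its peak. The pooled value of Kif3a, which has 1 peak, missed the threshold without 25 mM replicate 1 (adjusted p = 0.0537). Nphp4 changed by 0.69 (SE 0.25) with an adjusted p just over the threshold, and Ift88 by 0.51 (SE 0.32, adjusted p = 0.188). In H3K27Ac all 9 were called higher, beside 62.2% of all genes, from 0.95 for Nphp4 (SE 0.36, adjusted p = 0.0187) to 1.93 for Tulp1 (SE 0.50, adjusted p = 0.00139). With 1 library left at a glucose level and the spread taken from the other level, the H3K27Ac number was 0 without 25 mM replicate 1 or replicate 2, beside 0.696% and 11.8% of all genes, and 2 without 5 mM replicate 1, beside 27.3%. The median member change in these fits was 1.26, 1.52 and 1.05, and 1.37 with all libraries. With libraries scaled to reads in peaks 0 of the 9 genes were called in either mark, as were 0 of all genes. Centred on the median, 4 were called in H3K18La, beside 9.31% of all genes, and 0 in H3K27Ac, beside 1.53%. The genes whose pooled levels over the 10 libraries lay closest to the mean of the 9 were Tnrc6b, Dnajc13 and Sp1, at Euclidean distances of 0.365, 0.367 and 0.367 on the log2 scale. The members themselves lay 1.35 (Cep290) to 4.21 (Tulp1) from that mean.

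Other genes of the cilium were taken from a list of 64, of which 56 had a promoter peak. Each was read at its promoter peak with the highest mean level, while the shares and medians set beside are over every tested promoter peak. For H3K18La 48 could be tested, 18 were called higher and 0 lower, where 33.3% of all promoter peaks were called higher, with a median change of 1.08 beside 1.06 over all promoter peaks. For H3K27Ac 56 were tested and 52 called higher, where 57.0% of all promoter peaks were, with a median of 1.65 beside 1.22 over all promoter peaks. The H3K27Ac means of these list peaks all lay above 2 RPKM. At that minimum 9066 of 12614 promoter peaks of the series were called higher, with a median of 1.33. The counts of each group below can be read against those shares. In the photoreceptor axoneme 5 of 7 genes were called in H3K18La and 7 of 7 in H3K27Ac. Its strongest H3K18La change was at Rp1, the microtubule-binding protein of the outer segment axoneme (2.79, adjusted p = 0.00537), and its weakest at Poc1b (0.55, adjusted p = 0.349). Transition zone and basal body genes had 2 of 15 called in H3K18La, with B9d2 at 1.98 (adjusted p = 0.0134) and Tmem216 at 0.01 (adjusted p = 0.984) at the ends, and 16 of 18 called in H3K27Ac.

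Among the IFT-B genes, whose proteins carry cargo outward with Ift88, 2 of 9 were called in H3K18La and 13 of 13 in H3K27Ac. Ift81 had the weakest H3K18La value of the list at -0.37 (adjusted p = 0.530) and an H3K27Ac rise of 2.01 (adjusted p = 0.000937). For IFT-A, which serves the return journey, 2 of 4 were called in H3K18La, led by Ift122 at 1.99 (adjusted p = 0.000745), and 4 of 4 in H3K27Ac. The motors had 3 of 5 and 5 of 6 called, with Kif17 highest at 1.63 (adjusted p = 0.0114) and Dync2h1 lowest at 0.07 (adjusted p = 0.930) in H3K18La. In the tubby family 1 of 3 was called in H3K18La and 3 of 3 in H3K27Ac. Tub itself rose by 2.46 (adjusted p = 0.00154) in H3K18La and 2.43 (adjusted p = 0.000687) in H3K27Ac, and the H3K18La change of Tulp3 was 0.01 (adjusted p = 0.991). Carriers of lipidated proteins had 3 of 5 and 4 of 5 called, led by Unc119 at 2.69 (adjusted p = 0.000992) and 2.65 (adjusted p = 0.000156), while Pde6d was at -0.03 (adjusted p = 0.970) in H3K18La. Differences between these groups were not tested, and the test between marks called no peak of the series.

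**Figure D4:**
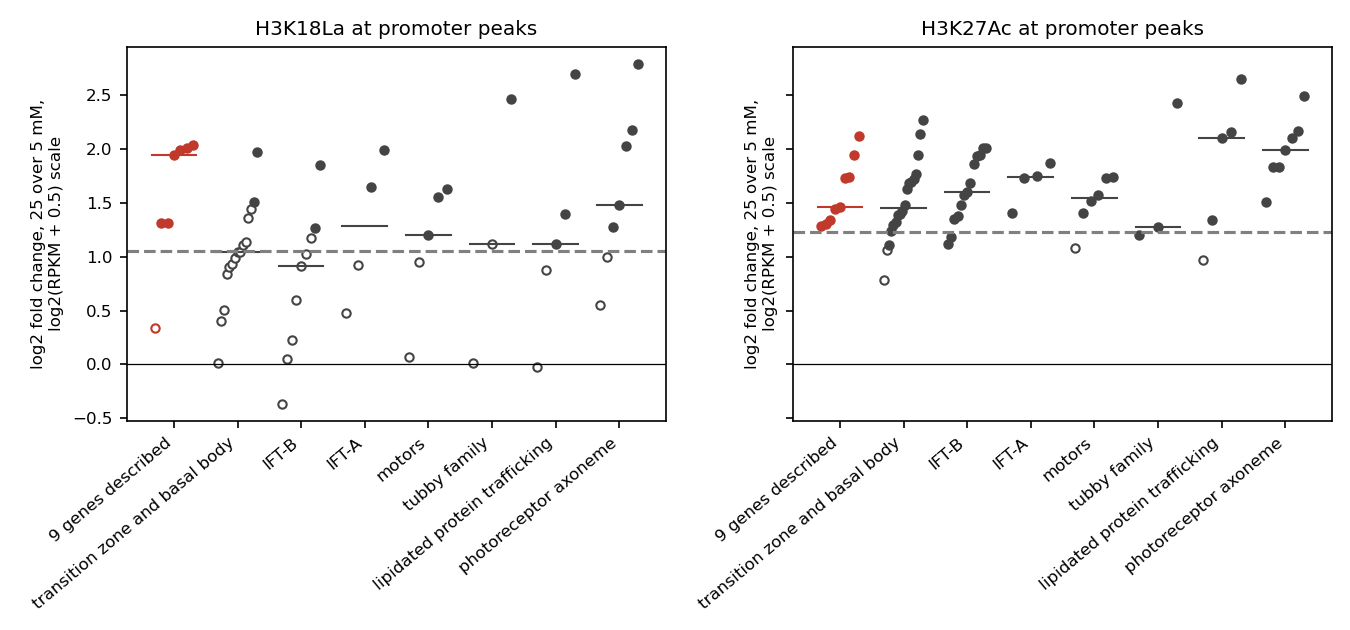
Log2 change from 5 mM to 25 mM glucose at promoter peaks of the 9 genes (red, 1 promoter peak each where tested) and of the groups of the 64-gene ciliary list (grey), for H3K18La and H3K27Ac. Filled points have an adjusted p under 0.05, bars are group medians, and the dashed line is the median of all tested promoter peaks (1.06 and 1.22). In H3K18La 18 of 48 list genes are filled, where 33.3% of all promoter peaks were called higher, and in H3K27Ac 52 of 56, where 57.0% were.

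The printed motifs were counted in the promoter windows of RefSeq (GRCm38.p6), which reach from 250 bases before to 50 after a start, on both strands. All 9 genes matched, with 12 windows. The windows are not separate promoters, since Nphp4 had 3 and Lca5 had 2 that overlap and share a match. GTTGCC was in 5 of the 12 windows and 4 of the 9 genes, where 12.5% of 32851 windows held it. TAATCC was in 1 window (7.06% of all windows) and GGGCGG in 5 windows and 5 genes (35.7% of all windows). The central 300 bases of the 54 peaks held GTTGCC in 10, TAATCC in 7 and GGGCGG in 6, where all peaks did so in 10.7%, 11.5% and 11.8%. The windows of Ift88, Kif3a, Lca5 and Nphp4 were those with GTTGCC, and the window with TAATCC was that of Rpgrip1. In the whole Tulp1 peaks there were 5 matches to TAATCC, 3 to GTTGCC and 10 to GGGCGG, and in the Rpgrip1 peaks 5 to TAATCC, 3 of them in soft-masked repeats, and 0 to the other motifs. No motif holds the letters of another, a match is a description of the sequence only, and binding was not measured. The windows had a median GC content of 60.3%, compared with 52.7% over all windows.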

How the data were processed

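CUT&Tag libraries for H3K18La (3 per glucose level) and H3K27Ac (2 per glucose level) from mouse retinal explants were analysed from a table of RPKM values per consensus peak that the authors deposited. Per the study's methods, the authors aligned reads to GRCm38 and kept developmental H3K18La peaks with a MACS -log10 q above 6 in at least 2 replicates. They annotated them to the nearest start with ChIPseeker 1.34.1 (promoter from -1000 to 500 bases). H3K27Ac was thus read only where H3K18La peaks had been called. Whether their normalization factors entered the RPKM denominators was not given in the sources used here. Their differential table for H3K18La, made with edgeR 3.40.2, holds fold changes, p-values and group means and was not used.

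From the RPKM values, reads were recovered as whole multiples of a unit read (tolerance 0.01, 100% of values in every library). Each mark was fitted with limma 3.58.1 (R 4.3.3, lmFit, eBayes with trend) on log2(RPKM + 0.5) over peaks with a mean of at least 1 RPKM, 25 mM minus 5 mM, with Benjamini-Hochberg adjustment over all tested peaks and a threshold of 0.05. The unit is not counts, so a count model was not the main test. The H3K27Ac fits as reported had infinite prior degrees of freedom. Each peak or gene thus took the spread of others at its level, whatever the spread of its own libraries. With no minimum level these degrees of freedom were 2.82 for peaks and 3.27 for genes, and 0 were called. The difference between marks was an interaction term over all 10 libraries. Gene values pooled the reads and lengths of all peaks of a symbol. Intervals on read ratios are exact (Clopper-Pearson), and PCR reads are not independent molecules, so they cover counting error only. Fits were tested on simulated data in which few peaks changed: most directions were recovered, but of the changes in H3K18La and the smaller ones in H3K27Ac few or none were called, and none by the test between marks. Replicates of every group differed by more than counting noise over peaks, by a chi-square statistic that was 1.05 to 2.92 times its degrees of freedom. In H3K18La at 25 mM it was 1.63 and 1.93 for the pairs with replicate 1, and 1.15 for replicates 2 and 3.

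The named peaks were, for each gene, the promoter peak and the other peak with the highest mean level, and up to 5 called rises and falls in each mark. Further peaks (second promoter peaks, the Kcnab2 peak over the Nphp4 start, those with an unadjusted difference between marks) were added after their values were seen. The 9 genes, the ciliary list, the markers and the motifs were chosen with earlier results of these data known. Alternatives changed the pseudocount (0.1, 1), the filter (none, 2 RPKM), the library scaling, the moderation, voom on recovered reads, the threshold (0.01) and the replicate block, left out each library, and merged 5 mM replicates 2 and 3 of H3K18La, the closest pair. Gene positions came from GENCODE and promoter windows from RefSeq, both on GRCm38.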

Additional observations from a re-analysis of the deposited data

Results flagged for a closer look

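A peak downstream of Nphp4, at chr4:152567832-152568799, had the marks on opposite sides. H3K18La was 1.47, 0.797 and 0 RPKM at 5 mM and 3.15, 1.78 and 1.74 RPKM at 25 mM, so every 25 mM library was the higher. H3K27Ac was 2.15 and 2.50 RPKM at 5 mM and 1.72 and 1.95 RPKM at 25 mM, so every 25 mM library was the lower. The H3K18La change minus the H3K27Ac change was 1.56 (SE 0.79, limma adjusted p = 0.903), which did not pass. The values rest on 7 and 18 H3K18La reads and on 24 and 26 H3K27Ac reads at 5 mM and 25 mM. Groups of 2 or 3 libraries were too small to call a single library outlying, although libraries were compared in pairs over all peaks.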

How the results depend on the processing

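The direction and the calls depended on the library scaling, over all peaks as in these genes. For H3K18La, 25 of the 54 peaks were called in the fit reported, 1 with libraries centred on the median of all peaks (the Lca5 intron 3 peak), 0 with scaling to reads in peaks, 0 with centring on the weakest peaks (the lowest 10% by level), and 16 at a threshold of 0.01. Over all peaks the same settings called 24539, 1040, 0, 0 and 12370. Leaving out a library gave 19 to 27, and over all peaks 15592 to 24366. For H3K27Ac the number was 24 as reported, 0 with no minimum level, 3 centred on the median (Lca5 intron 1, the Tulp1 promoter and the nearer Tulp1 upstream peak), 0 scaled to reads in peaks, 14 centred on the weakest peaks and 12 at a threshold of 0.01. Over all peaks these settings called 24698, 0, 1144, 0, 10539 and 9840. With a library left out, which leaves 1 at its glucose level, the H3K27Ac number was 0 to 37, and over all peaks 10 to 38643. The test between marks called 0 under every setting run.

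By gene, the H3K18La number of 6 became 4 centred on the median, 0 scaled to reads in peaks and 1 centred on the weakest peaks, where over all genes 8499 became 1385, 0 and 573, and leaving out a library gave 5 to 6, and over all genes 6614 to 7896. The H3K27Ac number of 9 became 0 with no minimum level, 0 centred on the median, 0 scaled to reads in peaks, 8 centred on the weakest peaks and 3 at a threshold of 0.01, where over all genes 10967 became 0, 269, 0, 7714 and 5704. With a library left out it was 0 to 9, and over all genes 119 to 12903. Over all genes the H3K27Ac calls were 10918 higher and 49 lower as reported, and 159 higher and 110 lower centred on the median. The H3K18La change of the Cep290 promoter reversed to -0.57 centred on the median, -0.70 scaled to reads in peaks and -0.88 centred on the weakest peaks. Of 259 alternative values of the promoter changes, 163 kept their direction and side of the threshold, 93 kept the direction only and 3 reversed. The cause was not tested.

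With the replicate block the numbers called were 25 H3K18La and 4 H3K27Ac peaks, beside 23918 and 7897 over all peaks, 0 between marks, and 6 H3K18La and 0 H3K27Ac genes, beside 8071 and 1069 over all genes. The replicate numbers only name the libraries, and deviations of libraries with the same number correlated by 0.013 to 0.029. Few reads lay behind H3K18La at 5 mM, where 12 of the 54 peaks held 1 to 3 reads over the 3 libraries.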
